A study of Mus musculus with 4 samples.

Results

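The replication-dependent histone genes were followed in chromatin accessibility data from RAW264.7, a macrophage-like cell line of the mouse. Members were the regions whose nearest gene, as the authors assigned it, carried a linker histone name (H1f and a number) or a core histone cluster name (H2ac, H2bc, H3c or H4c and a number). There were 51 such regions of 80929, named by 35 of 26614 genes. Of these, 39 regions of 29 genes lay on chromosome 13, 3 regions of 2 genes on chromosome 11, 0 on chromosome 3, and 9 regions of 4 genes on other chromosomes. The naming rule also took in linker histones that are not coupled to replication (H1f0, H1f8, H1f9 and H1f10), and these are described apart from the clusters.

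The assay was ATAC-seq, where a transposase cuts and tags open DNA. The 4 libraries were 2 titled Gel and 2 titled CuNZ@Gel, the series title calling the material a nanozyme hydrogel. No label names a genetic change of the cells, which were seeded at 1000000 per well of 12-well plates and cultured for 48 h. The treatment text is identical for every library and names CuNZ@Gel alone, so the titles alone say what the Gel cells received. Whether replicates were separate cultures is not in the labels. A p-value here measures the spread between these libraries, possibly only a technical one. All 10 macrophage markers examined named a region, with a median of 135 RPM and summed levels of 1413 and 1430 RPM in Gel and 1099 and 1113 RPM in CuNZ@Gel. Markers of other cells named regions too: 3 of 6 fibroblast, 5 of 6 lymphocyte and 3 of 5 epithelial markers. Those with a region had medians of 18.1, 4.44 and 1.65 RPM, below that of the macrophage markers. Their summed levels over the 4 libraries ran from 38.7 to 43.8, 30.7 to 44.5 and 12.1 to 17.5 RPM. The highest were Col1a1, Pdgfra and Cd4, with means of 21.1, 16.2 and 19.8 RPM in Gel. No region carried the name of Col1a2, Dcn, Lum, Cd79a, Krt5 or Krt14.

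Replication-dependent histone genes supply the histones that package newly copied DNA. They are small, mostly lack introns, and end in a stem-loop in place of a poly(A) tail. They lie in dense clusters that gather NPAT and other factors in a nuclear structure called the histone locus body. Core histones H2A, H2B, H3 and H4 form the nucleosome, and linker histone H1 binds where DNA enters and leaves it. Because the coding parts of these genes are near-identical copies, a read inside one can match several. How such reads were placed is not given in the sources used here, so the value of a single copy is uncertain. An H2A gene and an H2B gene often share a promoter, but a region carries the name of 1 gene only.

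Promoter windows of RefSeq (build GRCm38.p6, 250 bases before to 50 after the start) were found for 31 of the 35 genes. H1f9, H2ac25, H3c1 and H4c16 had none, and H2bc6 had an extra window, giving 32. The windows printed here are those of genes on chromosome 13 whose regions marked the range of behaviour described further on, and of their neighbours. Each is written 5′ to 3′ on the strand of its gene. Capitals mark matches on either strand to CCAAT (the site of the factor NF-Y), TATAA (the TATA box) and ATTTGCAT (the octamer bound by POU2F1). They also mark GGTCCG (the core of an H4 element bound by HINFP) and AAACACAA. The last is a form of a box described in H1 promoters, matched in full only and called the H1 box here. Matches to TATAA can overlap on opposite strands. The pair of H4 genes is shown because H4c3 held one of the largest falls and H4c6 did not fall. The window of H4c3 is chr13:23698409-23698708, minus strand, and that of H4c6 is chr13:23551619-23551918, minus strand.
H4c3: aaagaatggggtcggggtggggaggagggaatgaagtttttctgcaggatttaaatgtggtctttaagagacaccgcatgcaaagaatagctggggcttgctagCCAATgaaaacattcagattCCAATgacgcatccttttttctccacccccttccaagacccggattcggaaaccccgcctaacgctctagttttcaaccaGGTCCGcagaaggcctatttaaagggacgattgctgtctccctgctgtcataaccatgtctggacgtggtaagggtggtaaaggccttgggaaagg
H4c6: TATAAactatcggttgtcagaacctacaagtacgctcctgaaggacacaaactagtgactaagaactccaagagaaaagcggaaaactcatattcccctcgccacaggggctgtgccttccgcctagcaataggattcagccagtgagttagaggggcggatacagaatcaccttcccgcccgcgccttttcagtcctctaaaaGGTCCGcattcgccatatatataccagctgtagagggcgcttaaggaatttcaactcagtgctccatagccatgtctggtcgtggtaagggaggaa
Both hold GGTCCG at the same place, base 205 from the 5′ end of the window. CCAAT was found in the window of H4c3 and not in that of H4c6.

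The next pair are linker histone genes. H1f2 gave the strongest chromosome 13 region, and H1f3 neighbours H4c6. The window of H1f2 is chr13:23738557-23738856, plus strand, and that of H1f3 is chr13:23554782-23555081, plus strand.
H1f2: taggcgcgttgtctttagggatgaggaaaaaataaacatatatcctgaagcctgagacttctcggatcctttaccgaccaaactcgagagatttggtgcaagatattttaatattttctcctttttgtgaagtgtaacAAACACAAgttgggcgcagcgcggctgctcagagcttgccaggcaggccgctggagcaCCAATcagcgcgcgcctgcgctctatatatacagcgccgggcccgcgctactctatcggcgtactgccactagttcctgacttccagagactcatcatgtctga
H1f3: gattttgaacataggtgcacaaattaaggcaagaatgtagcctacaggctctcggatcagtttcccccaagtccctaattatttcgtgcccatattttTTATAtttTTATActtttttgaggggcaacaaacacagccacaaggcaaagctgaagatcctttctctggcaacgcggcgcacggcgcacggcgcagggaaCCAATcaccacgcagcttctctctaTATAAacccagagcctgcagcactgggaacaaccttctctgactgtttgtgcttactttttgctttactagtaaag
Both hold CCAAT, at base 197 in H1f2 and base 200 in H1f3. The full AAACACAA was found in H1f2, at base 139, and not in H1f3. The window of H1f3 does hold the shorter AAACACA, followed by G.

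The last pair, H2ac7 and H3c4, are neighbours whose regions were both lower in CuNZ@Gel under each of the scalings compared in this report. The window of H2ac7 is chr13:23574131-23574430, plus strand, and that of H3c4 is chr13:23575513-23575812, plus strand.
H2ac7: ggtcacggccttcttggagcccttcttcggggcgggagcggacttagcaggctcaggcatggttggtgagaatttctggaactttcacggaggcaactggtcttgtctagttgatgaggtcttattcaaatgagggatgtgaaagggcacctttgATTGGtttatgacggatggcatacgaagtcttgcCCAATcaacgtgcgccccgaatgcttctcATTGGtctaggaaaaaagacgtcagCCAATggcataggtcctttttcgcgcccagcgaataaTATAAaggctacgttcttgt
H3c4: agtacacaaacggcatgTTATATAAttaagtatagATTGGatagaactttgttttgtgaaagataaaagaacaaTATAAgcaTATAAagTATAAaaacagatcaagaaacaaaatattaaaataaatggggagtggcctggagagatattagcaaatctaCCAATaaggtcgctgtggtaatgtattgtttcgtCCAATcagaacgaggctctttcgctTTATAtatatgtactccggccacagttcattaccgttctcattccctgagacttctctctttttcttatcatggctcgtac
Both hold CCAAT and TATAA, and neither holds the octamer, the H1 box or GGTCCG.

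Over all 32 windows, CCAAT was present in 25 (78.1%), against 37.4% of the 32851 promoter windows in the table. By class it was in 8 of 8 H2A, 6 of 6 H2B, 4 of 4 H3, 4 of 6 H1 and 3 of 8 H4 windows. TATAA was present in 21 of 32, against 24.9% of all windows. The octamer stood in 4 of 8 H2A and 3 of 6 H2B windows, in 0 windows of the other classes, and in 1.74% of all windows. GGTCCG stood in 7 of 8 H4 windows, against 8.25% of all, and in 1 H1 window (H1f10) and 1 H2B window (H2bc9). AAACACAA was found in 1 window each of H1f2, H2ac4 and H2bc14, against 1.93% of all windows. Shorter forms of this box, such as AAACACA, were not counted. These matches describe the letters in the windows. With no annotation of the files' build in use, regions were not placed relative to these windows.

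**Figure D1:**
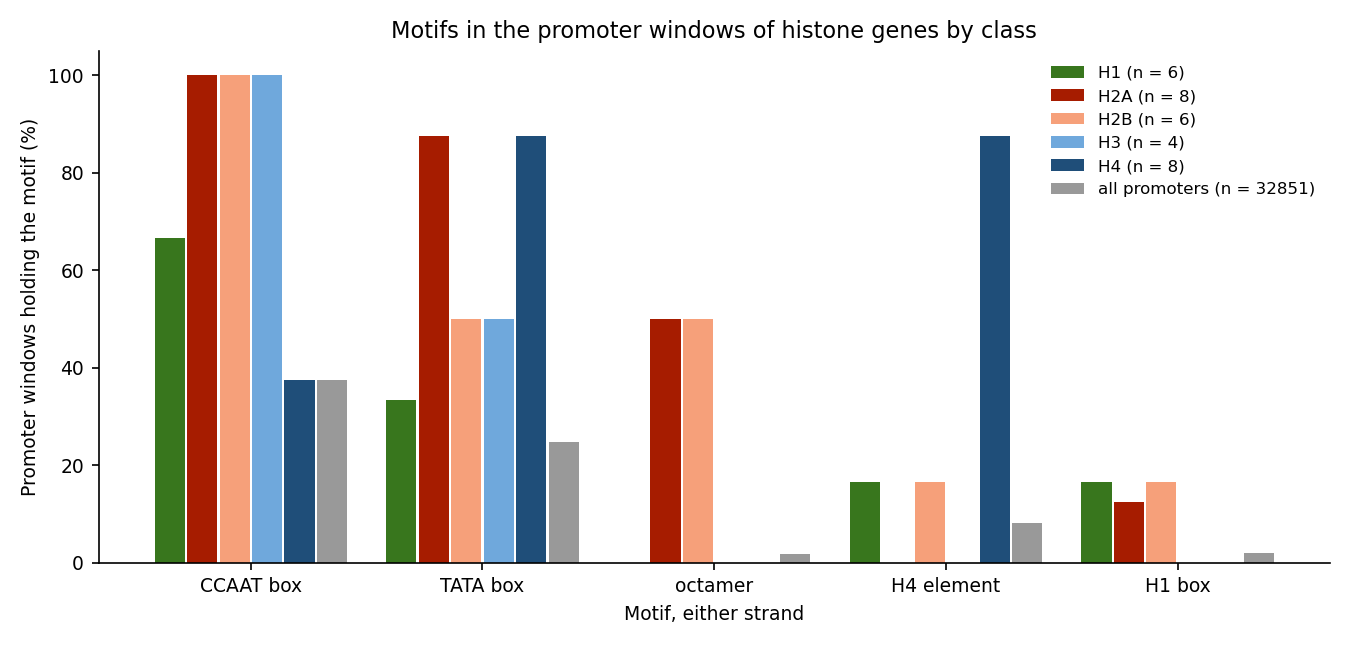
Percentage of promoter windows that hold each motif on either strand (y axis) for 5 motifs (x axis), by histone class, with all promoter windows in grey. The H4 element is in 7 of 8 H4 windows, the octamer is only in H2A and H2B windows among the histone classes, and CCAAT is in every H2A, H2B and H3 window. The H1 box is the full string AAACACAA, and shorter forms are not counted.

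The levels are RPM, the reads in a region per 1000000 scaled reads, and changes are CuNZ@Gel minus Gel on the deposited log2(RPM + 1) scale. Reads in regions were 18842335 and 17916199 in the Gel libraries and 7439626 and 10236266 in the CuNZ@Gel libraries. Per unit of background pileup, a value recovered from the peak folds, the Gel libraries had 18.8 and 18.6 (in 1e6 region reads) and the CuNZ@Gel libraries 6.37 and 8.53. This difference runs along the group difference in each comparison, and its part in the results was not tested. The scaling sets what counts as no change. Relative to the background pileup, 41 of the 50 tested histone regions were lower in CuNZ@Gel and 0 higher, against 60.6% and 4.85% of all tested regions. By gene it was 34 lower and 1 higher of 35, against 75.5% and 2.77% of all genes. For every count of 0 calls in this report, limma at an unadjusted p under 0.05 also gave 0, and with the deposited scaling so did voom weights.

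The histone regions found on chromosome 13 were among the stronger regions of these cells. Genes that named no region are not in these values. In the RefSeq gene table these were 25 of 54 such genes on chromosome 13 and all 10 on chromosome 3. The levels here are those of whole regions, not per kb. The median level of the 39 chromosome 13 regions, averaged over the 4 libraries, was 29.7 RPM, against 4.69 RPM for all regions. They were also wider, with a median of 932 bases (range 209 to 2068) against 485. A peak in all 4 libraries overlapped 36 of the 51 histone regions (70.6%), against 39.6% of all regions. On chromosome 13 it was 30 of 39.

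On chromosome 13 (GRCm39) the regions formed 3 blocks, a block being regions less than 250000 bases apart. The first ran from H2ac13 to H4c12 (chr13:21899842-21935217, 4 regions), the next from H2ac12 to H2bc11 (chr13:22219175-22228512, 6 regions) and the last from H2ac10 to H1f1 (chr13:23717802-23953283, 29 regions). Their summed levels were 244 and 237 RPM in Gel and 163 and 168 RPM in CuNZ@Gel for the first block. For the middle block the sums were 190 and 171 RPM against 125 and 123 RPM, and for the last 1240 and 1201 RPM against 801 and 803 RPM. In each block both CuNZ@Gel libraries lay below both Gel libraries, by similar factors. The mean in CuNZ@Gel was 68.8%, 68.8% and 65.7% of that in Gel.

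**Figure D2:**
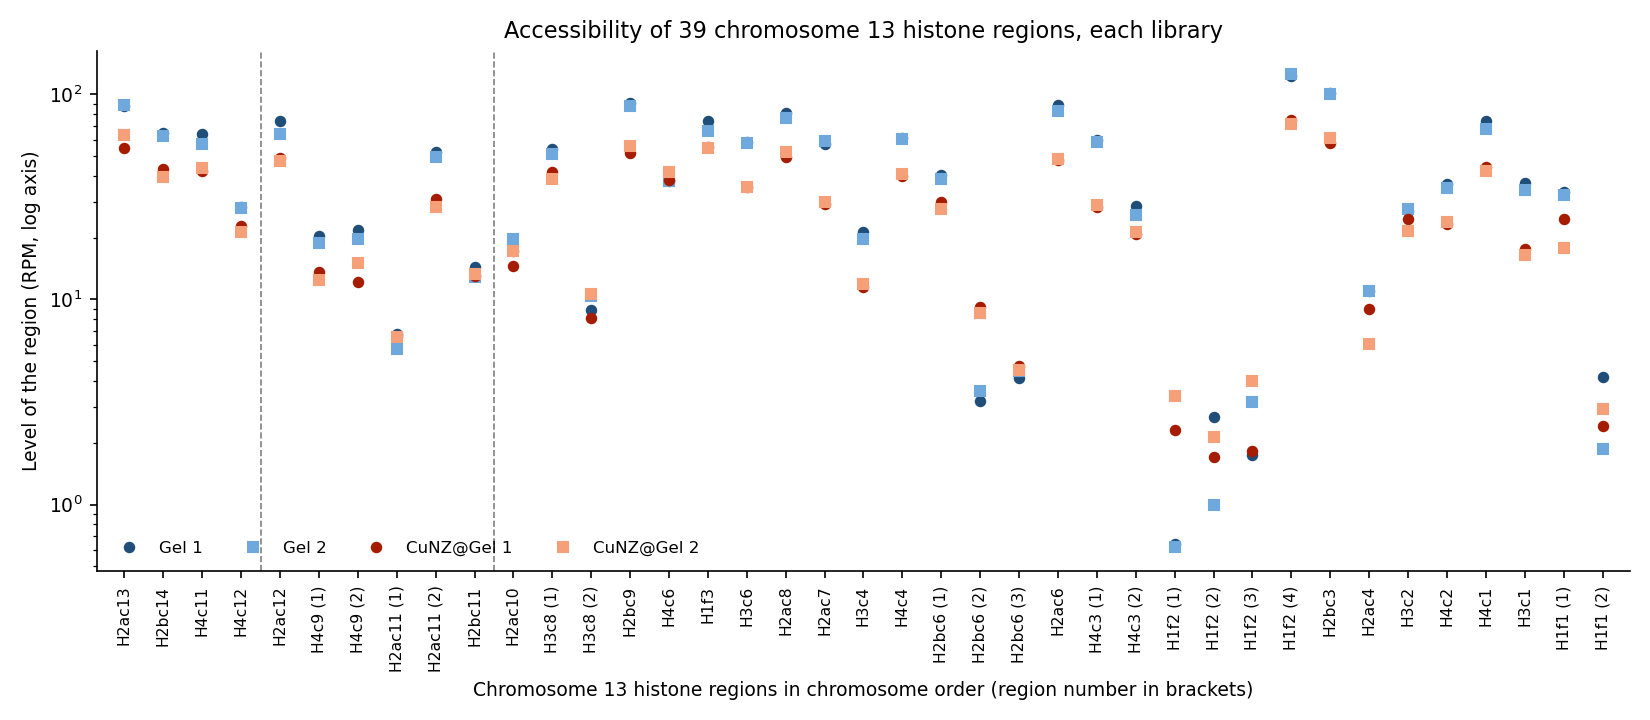
Level of each chromosome 13 histone region (y axis, RPM, log axis) in chromosome order (x axis), with 1 point per library and dashed lines between the 3 blocks. Most of the stronger regions have both CuNZ@Gel points under both Gel points, H4c6 does not, and the second region named H2bc6 has them above.

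Summed over chromosome 13, the histone regions held 1673 and 1608 RPM in Gel (1641 ± 46 (SD, n = 2)) and 1089 and 1094 RPM in CuNZ@Gel (1091 ± 3 (SD, n = 2)). The groups did not overlap, and the log2 change of the sum was -0.59. No single gene made up the sum: the strongest region, named H1f2, held 7.21% of it. Of the 39 regions, 27 were lower in CuNZ@Gel at an adjusted p under 0.05 (limma with Benjamini-Hochberg adjustment over all 77014 tested regions) and 2 were higher. Among all tested regions 21.9% were lower and 21.2% higher. The median change was -0.52, against -0.00 for all tested regions. Over all 51 histone regions, 50 passed the filter on low values, 31 were lower and 6 higher. Among the higher ones, a weak H1f2 region on chromosome 13 and a weak H1f10 region passed the filter only through the CuNZ@Gel libraries. Another weak H1f10 region, with 10 and 17 reads in Gel, fell short of the filter's level in Gel replicate 1. It too needed a CuNZ@Gel library to pass.

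Counted by gene, with the regions of a gene summed, 27 of 35 were lower and 2 higher, against 36.1% lower and 20.5% higher among all 25900 tested genes. The median change was -0.58, against -0.10 for all genes. Of the 2 higher genes, H1f10 had regions defined only by peaks of CuNZ@Gel replicate 2. On chromosome 13, 24 of 29 genes were lower and 0 higher at the threshold. The 5 not called were H2ac10, H2bc11, H2bc6, H3c2 and H4c6.

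The size of the fall went with level. In these libraries, strong regions as a whole were lower in CuNZ@Gel relative to Gel. In the top 10% of all tested regions by level, 86.9% were lower and the median change was -0.60. The 21 histone regions among them had a median change of -0.70, and 20 of them were lower. On chromosome 13, 26 of the 30 regions with a mean of at least 10 RPM were lower and 0 higher, whereas among the 9 weaker ones 1 was lower and 2 were higher. The share of all regions at that cut was not counted. In steps of 10% by level (deciles), 30.4%, 55.8% and 86.9% of all tested regions were lower in deciles 8, 9 and 10. There 21.3%, 12.1% and 2.91% were higher. In deciles 1 to 7, 0.740% to 17.5% were lower and 22.5% to 28.1% higher. Pearson's r between mean log2 level and change was -0.72 (Spearman's rho -0.63) across the 39 chromosome 13 regions, which share the 4 libraries, and -0.44 (rho -0.45) across all tested regions.

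When the trend of change with level was removed (cyclic loess between libraries), 10 of the 39 chromosome 13 regions were lower and 4 higher. The background then was 13.8% lower and 18.8% higher. The median change of the 39 regions was -0.07, against -0.05 for all tested regions. Over all 50 tested histone regions the calls were 13 lower and 8 higher, in place of 31 and 6, and the median was -0.05. The blocks differed in how many calls they kept: 0 of 4 regions in the first block, 3 of 6 in the middle block and 7 of 29 in the last were lower. Whether the blocks differ from each other was not tested. In the gene fit, whose trend is set by genes and their summed levels, 22 of 35 genes were lower and 3 higher after removal, against 22.8% and 24.2% of all genes. A gene with 1 region can therefore be called by one fit and not by the other. Both values are given further on for some of these genes. The rest, called lower in the gene fit alone, are given here with the region value first. They were H2bc14 (-0.08 and -0.29), H3c6 (-0.21 and -0.40), H2ac8 (-0.03 and -0.27), H4c4 (-0.07 and -0.27) and H4c2 (-0.24 and -0.41).

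The linker histone H1 genes of the cluster encode the somatic H1 subtypes. H1f2 had the strongest region on chromosome 13 (chr13:23922326-23924073), with 122 and 125 RPM in Gel and 74.7 and 71.9 RPM in CuNZ@Gel. The groups did not overlap. It fell by 0.75 on the log2 scale (SE 0.07, limma adjusted p = 7.75e-13). With the trend removed its change was -0.02 (adjusted p = 0.848). Summed over its 4 regions, H1f2 was still lower in the gene fit with the trend removed (-0.26, adjusted p = 0.00112). A weak region also named H1f2 (chr13:23912185-23912429) went the other way, with 0.641 and 0.619 RPM in Gel and 2.304 and 3.38 RPM in CuNZ@Gel. Its change was 1.22 (SE 0.30), and 0.92 with the trend removed. It held 11 and 10 reads in Gel and 19 and 38 in CuNZ@Gel. The region passed the filter on low values only through the CuNZ@Gel libraries. No p-value is given, since the test would rest on that selection. A peak was called there in 1 library, CuNZ@Gel replicate 2.

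H1f3 lies in the last block, next to H4c6. Its region (chr13:23739131-23740726) held 74.3 and 66.5 RPM in Gel and 55.6 and 54.6 RPM in CuNZ@Gel, with no overlap. The change was -0.35 (SE 0.08, limma adjusted p = 0.000534), against the median of -0.60 for the top 10% of regions by level. It was not called without Gel replicate 1 (-0.27, limma adjusted p = 0.0777). In the region fit it was called higher once the trend was removed (0.24, adjusted p = 0.0184), which it was not in the gene fit (0.00, adjusted p = 0.981). H1f1, a linker histone most abundant in germ cells and some lymphoid cells, had a main region with 33.6 and 32.2 RPM against 24.6 and 17.8 RPM. That region fell by 0.63 (SE 0.12, limma adjusted p = 3.08e-05). No region carried the name of H1f4, H1f5 or the testis gene H1f6.

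The H2A genes had the largest summed fall among the classes on chromosome 13. Their 9 regions summed to 476 and 457 RPM in Gel and 292 and 299 RPM in CuNZ@Gel, a log2 change of -0.66. The sums of the other classes changed by -0.54 (H4) to -0.58 (H2B), and the differences between classes were not tested. Of the 9 H2A regions 7 were lower and 0 higher, and with the trend removed 4 and 0. Over all tested regions 21.9% were lower and 21.2% higher, and 13.8% and 18.8% with the trend removed. H2ac13 had the highest gene level of the class, with 87.5 and 89.1 RPM in Gel and 54.6 and 63.4 RPM in CuNZ@Gel. Its change was -0.58 (SE 0.08, limma adjusted p = 3.47e-08), and 0.06 with the trend removed (adjusted p = 0.619). The gene fit with the trend removed had the opposite sign and called it lower (-0.21, adjusted p = 0.0252).

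H2ac7 fell with and without the trend. Its region (chr13:23758186-23758699) held 57.2 and 58.9 RPM in Gel and 29.3 and 29.8 RPM in CuNZ@Gel. The replicates lay close together and the groups far apart. The fall was 0.95 (SE 0.10, limma adjusted p = 8.93e-12), and the change with the trend removed was -0.49 (adjusted p = 1.72e-05). Other H2A regions called lower under both scalings were H2ac6 (-0.82 and -0.22), the second region of H2ac11 (-0.76 and -0.33) and H2ac4 (-0.52 and -0.53). The H2ac4 call was lost without Gel replicate 1 (-0.51, limma adjusted p = 0.107), without Gel replicate 2 (-0.52, adjusted p = 0.102), without CuNZ@Gel replicate 2 (-0.27, adjusted p = 0.226) and by totals of reads in regions (-0.26, adjusted p = 0.257). H2ac10 was not called (-0.21, SE 0.14, limma adjusted p = 0.238), with 17.3 and 19.7 RPM in Gel and 14.6 and 17.2 RPM in CuNZ@Gel. Its groups were separated by a narrow margin.

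Among the H2B genes, 4 of 7 chromosome 13 regions were lower and 1 higher (21.9% and 21.2% of all tested regions). With the trend removed it was 0 lower and 1 higher (13.8% and 18.8%). H2bc3 was the strongest, with 101.1 and 101.0 RPM in Gel and 58.0 and 61.2 RPM in CuNZ@Gel. It fell by 0.75 (SE 0.07, limma adjusted p = 7.13e-12), and by 0.09 with the trend removed (adjusted p = 0.367). H2bc9 held 90.4 and 87.6 RPM against 51.6 and 56.2 RPM (change -0.71, and -0.09 with the trend removed). The gene fit with the trend removed nevertheless called both lower, H2bc3 at -0.38 (adjusted p = 8.21e-05) and H2bc9 at -0.35 (adjusted p = 0.000377). H2bc11 showed no call (14.4 and 12.9 RPM against 12.98 and 13.2 RPM, change -0.05, SE 0.15, limma adjusted p = 0.809).

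H2bc6 named 3 regions that did not move together. The first (chr13:23769046-23770124) held 40.2 and 38.7 RPM in Gel and 29.8 and 27.7 RPM in CuNZ@Gel and fell by 0.44 (limma adjusted p = 0.000405), a call lost by totals of reads in regions (-0.17, adjusted p = 0.206). The second (chr13:23793153-23794084), further along, held 3.21 and 3.59 RPM in Gel and 9.22 and 8.62 RPM in CuNZ@Gel. It rose, with no overlap between groups and a change of 1.174 (SE 0.20, limma adjusted p = 4.61e-06). Without the trend it was 1.07 (adjusted p = 1.35e-05), and a peak was called there in all 4 libraries. Relative to the background pileup the call was lost (0.28, limma adjusted p = 0.346). The third region held 4.14 and 4.46 RPM against 4.73 and 4.53 RPM and was not called (change 0.09). Summed by gene, H2bc6 was not called (-0.15, SE 0.09, limma adjusted p = 0.141).

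Among the H3 genes, 4 of 6 regions were lower and 0 higher, and 2 and 0 with the trend removed (all tested regions: 21.9% and 21.2%, then 13.8% and 18.8%). The class had sums of 207 and 201 RPM in Gel and 139 and 135 RPM in CuNZ@Gel. H3c1 was among the histone regions with the largest falls. Its region (chr13:23946307-23946803) held 37.0 and 34.04 RPM in Gel and 17.6 and 16.4 RPM in CuNZ@Gel, so the CuNZ@Gel mean was 47.9% of the Gel mean. The fall was 1.02 (SE 0.12, limma adjusted p = 4.32e-10), and 0.73 remained with the trend removed (adjusted p = 2.62e-07). H4c1, whose region (chr13:23944973-23946070) ends just before that of H3c1, held 74.3 and 67.8 RPM against 44.0 and 42.2 RPM. Its change was -0.71, and -0.16 with the trend removed (adjusted p = 0.158), which was not called. In the gene fit with the trend removed it was called lower (-0.38, adjusted p = 0.000589).

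H3c4 (chr13:23759807-23760098), next to H2ac7, held 21.4 and 19.6 RPM in Gel and 11.5 and 11.9 RPM in CuNZ@Gel. It fell by 0.76 (SE 0.14, limma adjusted p = 1.23e-05), and by 0.62 with the trend removed (adjusted p = 0.000248). H3c8, the gene of the class with the highest summed level, had 63.2 and 61.6 RPM against 49.97 and 49.3 RPM and changed by -0.32 in the gene fit (SE 0.08, limma adjusted p = 0.00138). That call was lost with the trend removed (0.006, limma adjusted p = 0.956) and by totals of reads in regions (-0.044, adjusted p = 0.663). H3c2 was not called (27.0 and 27.5 RPM against 24.7 and 21.6 RPM, change -0.23, SE 0.12, limma adjusted p = 0.115). Its groups did not overlap, and without CuNZ@Gel replicate 1 it was called (-0.32, limma adjusted p = 0.0329).

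Among the H4 genes, 9 of 10 chromosome 13 regions were lower and 0 higher (21.9% and 21.2% of all tested regions). With the trend removed 3 were lower and 1 higher (13.8% and 18.8%). The first region of H4c3 (chr13:23881504-23882679) held 59.6 and 58.3 RPM in Gel and 28.4 and 28.9 RPM in CuNZ@Gel. The groups were far apart. It fell by 1.02 (SE 0.10, limma adjusted p = 1.28e-12), and by 0.56 with the trend removed (adjusted p = 1.03e-06). The second region of H4c3 fell by 0.35 (28.6 and 25.7 RPM against 20.9 and 21.2 RPM), and its change was -0.07 with the trend removed. That call was lost without Gel replicate 1 (-0.28, limma adjusted p = 0.23). Both regions of H4c9 were lower under both scalings (-0.56 and -0.58, then -0.41 and -0.42), but not by totals of reads in regions (-0.29 and -0.31, adjusted p = 0.0903 and 0.0643).

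H4c6 was the only 1 of the 30 chromosome 13 regions with a mean of at least 10 RPM whose change was above 0. Its region (chr13:23735192-23736313) held 37.9 and 37.8 RPM in Gel and 38.2 and 41.8 RPM in CuNZ@Gel, and both CuNZ@Gel libraries were just above Gel. The change was 0.08 (SE 0.10, limma adjusted p = 0.577). After removal of the trend it was called higher, at 0.51 (adjusted p = 1.55e-05) in the region fit and 0.33 (adjusted p = 0.00601) in the gene fit. Relative to the background pileup the sign turned, with a change of -0.95 in the gene fit. Its neighbours on either side were H2bc9, which fell by 0.71, and H1f3, which fell by 0.35. The authors' peak fold enrichment at H4c6 was 6.51 and 7.23 in Gel and 6.69 and 7.21 in CuNZ@Gel, whereas that at H4c3 was 13.3 and 12.1 in Gel and 7.97 and 8.69 in CuNZ@Gel.

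**Figure D3:**
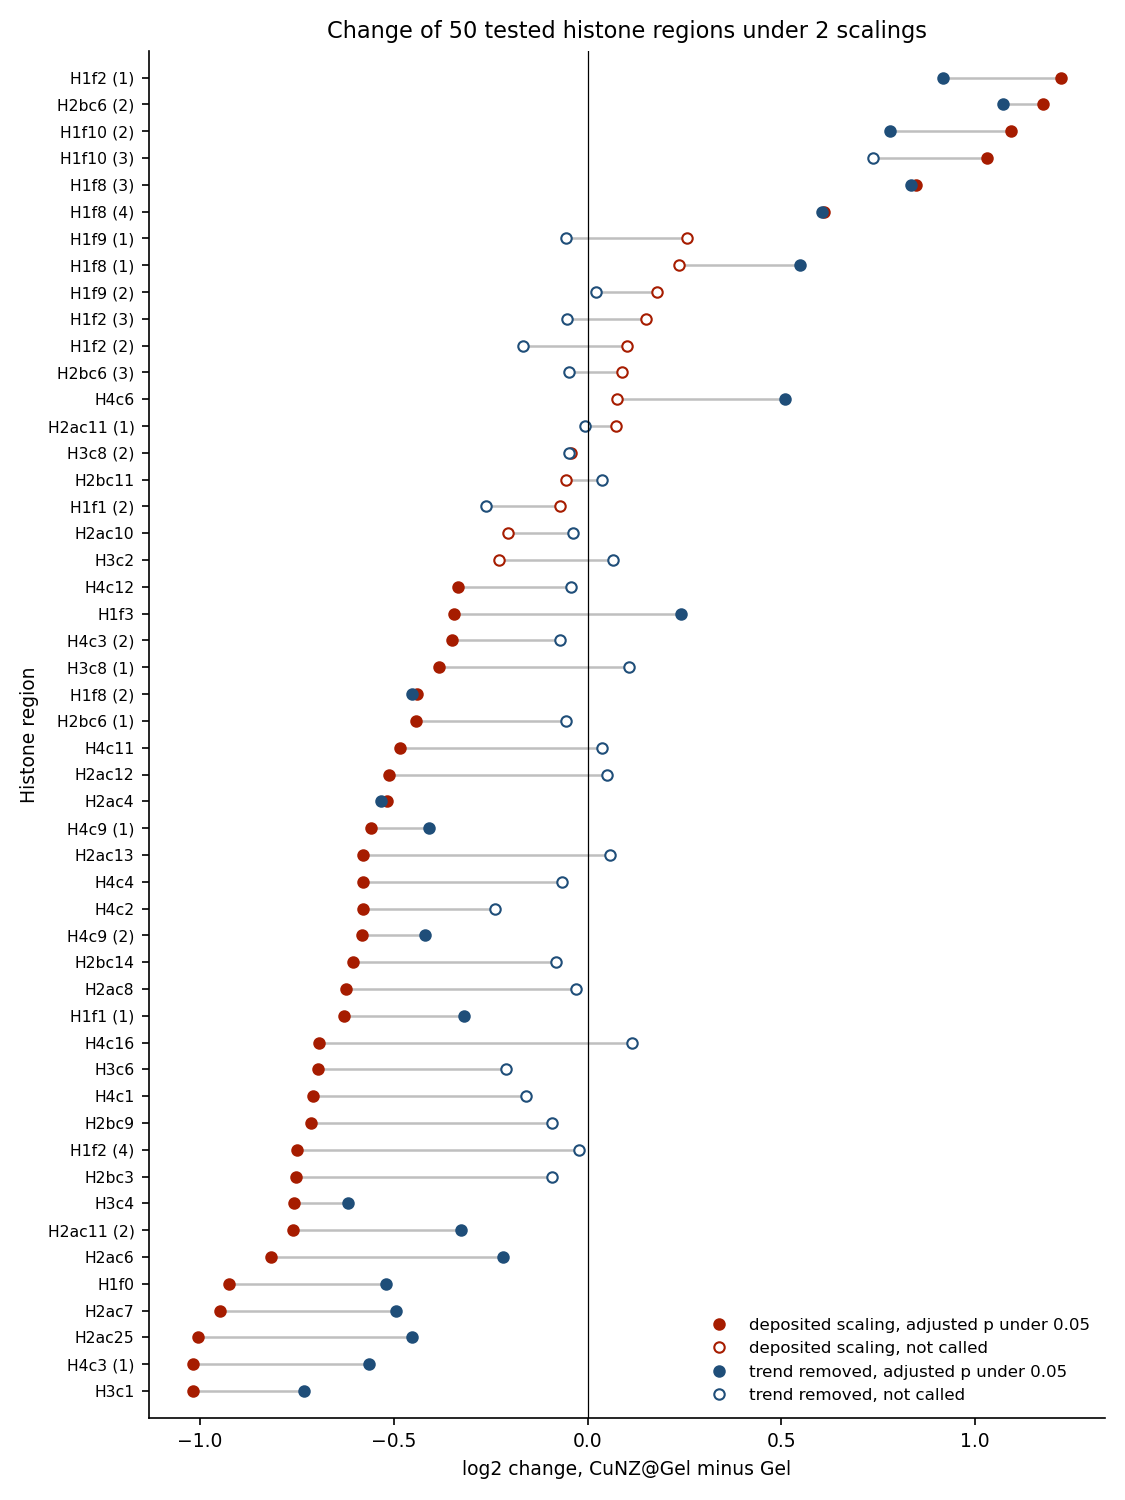
The log2 change, CuNZ@Gel minus Gel (x axis), of each of the 50 tested histone regions (y axis, region number in brackets), with deposited scaling in red and the trend removed in blue. Filled points have an adjusted p under 0.05 and open points do not. Most red falls become open blue points nearer to 0. Of the 31 regions called lower, 13 stay filled on the left, among them H3c1, H3c4, H4c3 (1), H2ac7, H1f0 and H2ac25.

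Per kb of region, to set levels of different groups side by side, the chromosome 13 sum was 46.9 and 45.1 RPM per kb in Gel and 30.6 and 30.7 RPM per kb in CuNZ@Gel. The H2A regions stood highest among the classes, at 62.5 and 60.02 RPM per kb in Gel, and the H2B regions lowest, at 36.6 and 35.8 RPM per kb. In CuNZ@Gel these were 38.3 and 39.3 RPM per kb for H2A and 24.1 and 24.3 RPM per kb for H2B. The order from H2A to H2B was the same in both groups. H1, H3 and H4 lay between them. Weak regions in a sum lower its value per kb. Regions 2 and 3 named H2bc6, of 932 and 1112 bases, had means of 6.16 and 4.46 RPM and so lowered the H2B value. The order of classes without such weak regions was not computed.

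**Figure D4:**
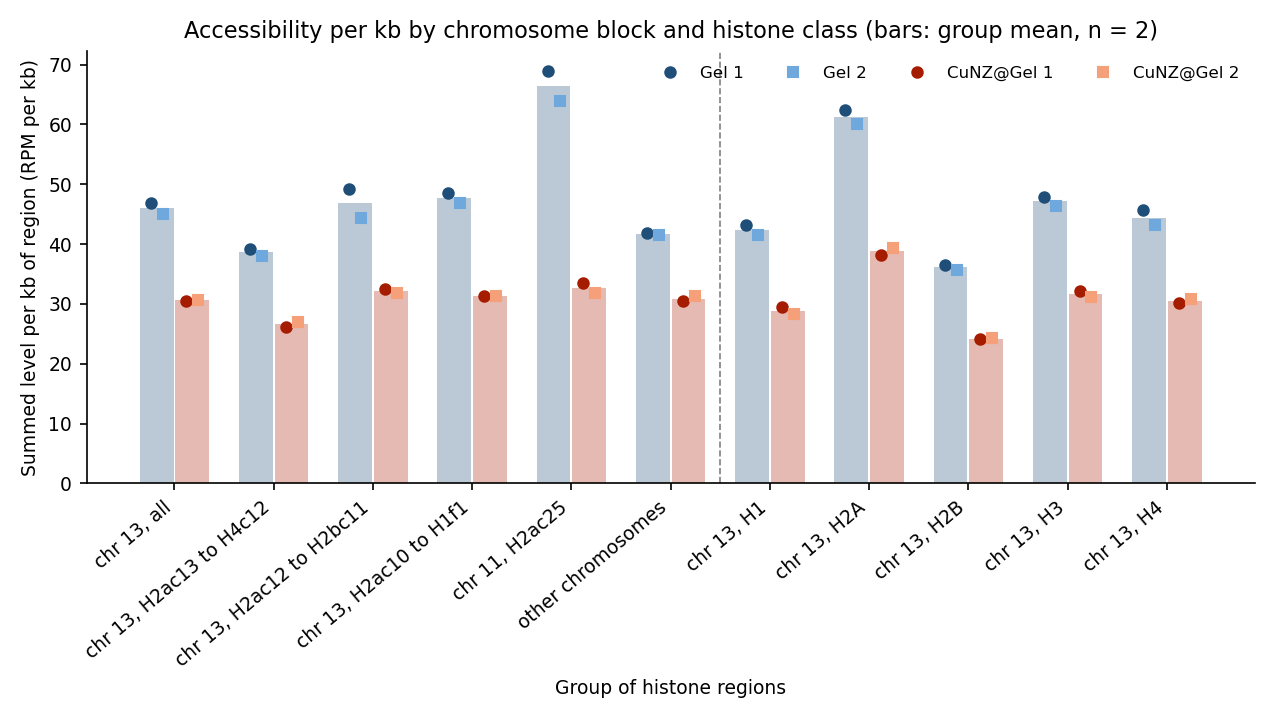
Summed level per kb of region (y axis, RPM per kb) for chromosome blocks (left of the dashed line) and for histone classes of chromosome 13 (right), with 1 point per library and bars for group means. Both CuNZ@Gel points lie under both Gel points in every group, with the widest gap at H2ac25.

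On chromosome 11 the rule found no cluster of several genes. H2ac25, an H2A gene outside the large clusters, had 1 region (chr11:58844977-58846174) with 82.5 and 76.7 RPM in Gel and 40.1 and 38.1 RPM in CuNZ@Gel. The CuNZ@Gel mean was 49.2% of the Gel mean. The region fell by 1.01 (SE 0.09, limma adjusted p = 6.73e-14), and by 0.45 with the trend removed (adjusted p = 1.08e-05). H1f9, a linker histone gene of spermatids, named a pair of weak regions elsewhere on the chromosome, with 3.73 and 5.94 RPM in Gel and 5.09 and 6.57 RPM in CuNZ@Gel in sum. The groups overlapped and the gene was not called (0.25, SE 0.23, limma adjusted p = 0.377 in the gene fit). The chromosome 11 sum was 86.2 and 82.6 RPM against 45.2 and 44.7 RPM, a log2 change of -0.91. H2ac25 held 91.8% of it.

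The chromosome 13 and chromosome 11 sums thus both fell, by 0.59 and 0.91 on the log2 scale. After the trend with level was removed, their changes were -0.09 and -0.42. The chromosome 11 value is that of 1 region: without H2ac25 the change was 0.30, from 2 weak regions. Whether the chromosomes differ was not tested, because the members were chosen with results known.

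On chromosome 3 the gene table of RefSeq (GRCm38.p6, used for gene order only) places 10 histone genes of these classes between Bola1 and Fcgr1. They are H2ac21, H2ac20, H2bc21, H3c15, H2ac19, H2ac18, H3c14, H4c14, H3c13 and H2bc18. None of them named a region here. In GRCm39 coordinates no analysed region lay between 96103115 (the end of the last region named Bola1) and 96200563 (the start of the next, named Fcgr1), a stretch of 97447 bases. Of all 80860 gaps between neighbouring regions, 5.19% were as long, and 7.15% of those on chromosome 3. The median gap was 9364 bases.

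A similar stretch lay on chromosome 13, where 101273 bases after H4c12's region held no region, up to one named n-TIaat11. The RefSeq order places 11 histone genes there, from H2ac15 to H2ac24, including H1f5. In total, 68 genes of these name classes are in that table, 32 of them named a region and 36 did not. On chromosome 13 it was 29 of 54. Each region carries 1 name, and these genes are near-identical copies of others in the clusters, so whether their own chromatin was closed was not tested.

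Among histone genes elsewhere, H4c16, a solitary H4 gene on chromosome 6, had the strongest histone region of all (chr6:136780654-136782110). It held 154.2 and 154.5 RPM in Gel and 99.1 and 91.3 RPM in CuNZ@Gel and fell by 0.69 (SE 0.06, limma adjusted p = 7.27e-13). Without the trend its change was 0.11 in the region fit (adjusted p = 0.175) and -0.27 in the gene fit (adjusted p = 0.000543), so the sign depended on the fit. H1f0, the replication-independent H1.0 that accumulates in non-dividing cells, held 49.6 and 49.5 RPM in Gel and 27.4 and 23.9 RPM in CuNZ@Gel (chr15:78912190-78913251). It fell by 0.93 (SE 0.10, limma adjusted p = 1.54e-10), and by 0.52 with the trend removed (adjusted p = 2.45e-05).

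The genes called higher were both linker histones outside the clusters. H1f10, a replication-independent H1 variant, held 1.23 and 1.79 RPM in Gel and 5.82 and 6.84 RPM in CuNZ@Gel. Its change in the gene fit was 1.55 (SE 0.24). The values are low, with 10 and 12 reads in Gel against 20 and 30 reads in CuNZ@Gel at its second region. All its peaks were in CuNZ@Gel replicate 2, so its 3 regions were defined by a library of the higher group. The second region passed the filter only through CuNZ@Gel, and the third needed a CuNZ@Gel library to pass. No p-value is given for H1f10, since the test would rest on that selection. H1f8, the oocyte linker histone, rose by 0.31 (SE 0.10, limma adjusted p = 0.0107), from 50.4 and 48.2 RPM to 54.1 and 69.1 RPM. Without CuNZ@Gel replicate 2 this call was lost (0.13, limma adjusted p = 0.219), and relative to the background pileup the change was -0.73. Its 4 regions differed: regions 3 and 4 rose by 0.85 and 0.61, region 2 fell by 0.44 and region 1 was not called (0.24). The call of region 2 was lost without Gel replicate 1 (-0.45, limma adjusted p = 0.166), Gel replicate 2 (-0.43, adjusted p = 0.186) or CuNZ@Gel replicate 2 (-0.32, adjusted p = 0.147). That of region 4 was lost without Gel replicate 2 (0.46, adjusted p = 0.121) or CuNZ@Gel replicate 2 (0.46, adjusted p = 0.068), while region 1 was called higher without CuNZ@Gel replicate 1 (0.44, adjusted p = 0.00514).

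Peaks were called by the authors on each library alone. A peak overlapped 36 and 35 of the 39 chromosome 13 regions in Gel and 32 and 36 in CuNZ@Gel, whereas over all regions the share was 75.1% and 72.4% in Gel and 50.9% and 64.2% in CuNZ@Gel. The chromosome 13 regions that held more than 1 peak numbered 0 and 2 of 39 in Gel and 7 and 6 of 39 in CuNZ@Gel. Over all regions these shares were 1.19% and 0.781% in Gel and 1.72% and 1.62% in CuNZ@Gel. Since wide regions can hold more peaks, regions of at least 1000 bases were also counted, a limit chosen after the values were seen. Among all 10849 such regions the shares were 7.63% and 4.89% in Gel and 11.6% and 10.7% in CuNZ@Gel, and among the 22 histone regions of that width the numbers were 1 and 1 in Gel and 7 and 5 in CuNZ@Gel. Examples were H2ac8 (1 and 1 peaks against 2 and 2) and the first region of H2bc6 (1 and 1 against 2 and 2).

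Other genes between histone regions of a block were few. Of 6 such regions, named Gm33387, Gm22452 and Hfe (an iron regulator), 2 were lower and 0 higher (all tested regions: 21.9% and 21.2%). One was in Gm22452, with 8.28 and 7.24 RPM in Gel and 2.18 and 2.31 RPM in CuNZ@Gel (change -1.43, SE 0.22, limma adjusted p = 5.69e-07). The span from H2ac13 to H1f1 also holds many tRNA genes. Of 36 tested regions named by a tRNA gene, 16 were lower and 3 higher (all tested regions: 21.9% and 21.2%), with a median change of -0.22 at a median level of 11.8 RPM. Without the trend, 9 were lower and 4 higher (13.8% and 18.8%). This comparison was chosen after the values were seen.

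Genes that act on histone gene expression also named regions. Of 25 tested genes, 21 were lower and 1 higher (all tested genes: 36.1% and 20.5%), and the median change was -0.43 against -0.10 for all genes. With the trend removed 10 were lower and 1 higher (22.8% and 24.2%). Slbp, which binds the stem-loop of histone mRNA, held 129.7 and 130.0 RPM in Gel and 71.8 and 72.1 RPM in CuNZ@Gel and fell by 0.84 (SE 0.06, limma adjusted p = 1.12e-09). Casp8ap2 (FLASH), a histone locus body component, held 89.95 and 85.2 RPM against 54.3 and 43.1 RPM and also fell by 0.84. Hinfp, the H4 promoter factor, was not called (17.8 and 17.2 RPM against 17.0 and 15.7 RPM, change -0.09). Npat, the histone gene coactivator, was not called either, with 1.167 and 2.04 RPM in Gel and 5.58 and 1.69 RPM in CuNZ@Gel. Those groups overlapped. Cpsf2, a histone mRNA processing subunit, had the largest change downward with the deposited scaling (-0.90), and the one rise that of Ubn1, a HIRA partner (1.22, from 4.08 and 2.41 to 7.88 and 9.59 RPM).

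Of the 17 replication-independent histone variants listed, 9 were tested, 6 were lower, 1 was higher, and H3f4 and Macroh2a1 were not called. Over all tested genes 36.1% were lower and 20.5% higher. The median of the 9 was -0.63. With the trend removed, 6 were again lower and 1 higher, against 22.8% and 24.2% of all genes. H3f3a, which encodes H3.3, held 91.5 and 106.3 RPM in Gel and 49.5 and 50.7 RPM in CuNZ@Gel and fell by 0.96 (SE 0.08, limma adjusted p = 4.5e-09). H3f3b, the other H3.3 gene, fell by 0.71 (264.7 and 263.1 against 168.2 and 153.6 RPM). H2az1, an H2A.Z gene, fell by 0.57 (22.9 and 23.5 against 14.7 and 16.0 RPM). The rise was in H2bl1, an H2B-like gene (2.57 and 3.03 against 5.58 and 8.80 RPM, change 1.08). H2ax is not analysed here, since no analysed region carried its name.

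Of 19 tested histone chaperone genes, 18 were lower and 0 higher (all tested genes: 36.1% and 20.5%), with a median of -0.53. After the trend was removed, 11 were lower and 0 higher (22.8% and 24.2%). The largest fall with the deposited scaling was that of Asf1a, which hands H3 and H4 to other chaperones, with 60.1 and 66.7 RPM in Gel and 29.8 and 32.6 RPM in CuNZ@Gel (change -0.998, SE 0.09, limma adjusted p = 1.97e-08). Atrx was not called (22.8 and 18.3 against 21.2 and 21.3 RPM, change 0.06). Median changes of these lists (-0.43, -0.63 and -0.53) stood near that of the histone genes (-0.58). The median summed level per gene was 60.7 RPM for the expression factors, 49.3 RPM for the variants and 63.96 RPM for the chaperones. A gene's sum can cover several regions, and the median over all genes was not computed.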

How the data were processed

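ATAC-seq libraries of RAW264.7 cells, 2 titled Gel and 2 titled CuNZ@Gel, were grouped by their titles. Per the submitters' processing notes, the build was GRCm39 and the tools were MACS2 2.2.8, SAMtools 1.17, Bowtie2 2.3.4.3, fastp 0.23.1 and Picard 2.27.5. Their roles and any filter on reads from repeated sequence: not given in the sources used here. Values on a log2 scale were deposited by the authors for 80929 regions, named by nearest gene. These were read as log2(RPM + 1), because 100% of low values came back within 0.1 of a whole read. The authors' scaling factors implied by the totals were 0.910, 0.902, 1.11 and 1.10. A peak list per library, deposited too, holds the authors' fold (a ratio over background), −log10 p-values and q-values, and a score. Merging these lists gave the regions their coordinates, which matched the RefSeq chromosome of the gene for 77101 of 77103 regions. The lists served for overlap counts and, through the folds, for the background pileup (1.00, 0.962, 1.169 and 1.200).

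Regions that reached 10 reads at the median depth (0.710 per 1000000) in 2 or more libraries, and 15 or more in total, were fitted (77014 in all). The test was limma 3.58.1 in R 4.3.3 with a trend on intensity. It was two-sided, with p-values adjusted by Benjamini-Hochberg at a threshold of 0.05. Gene values were log2(summed RPM + 1) over 25900 genes. Fold changes on this scale understate changes of low values. A gene's sum can hide regions that moved in opposite directions. The script was tested on simulated data. Precision is limited by 2 libraries a group. Alternatives covered scaling, filters, pseudocount, voom weights, the replicate block, leaving out each library, and peak thresholds.

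Members and gene lists were chosen with earlier results of these data known. Genes were named by a rule: the highest level, largest rise and largest fall in each cluster and histone class, calls against the majority, the chromosome 11 members, the linker variants, the 5 strongest, most raised and most lowered regions, and fixed members of each list. Regions outside it (H3c4, H2ac6, H2ac4, H2ac11, H4c9, H4c1, H2ac8) were picked after their values were seen, as were the printed promoter windows. Positions relative to exons were not analysed here.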

Additional observations from a re-analysis of the deposited data

How the results depend on the processing

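Scaling moved the counts most. Relative to the background pileup, 0 histone regions and 1 gene were higher. With the trend of change with level removed, 13 regions were lower in place of 31. A filter on low values 5 times stricter left 3 regions higher, since the other 3 were no longer tested. Leaving out each library in turn gave 5 to 7 regions higher, 26 to 32 lower, 1 to 2 genes higher and 25 to 28 lower. The higher call of H1f8 was lost without CuNZ@Gel replicate 2. The lower calls of the genes H2ac4 (-0.51, -0.52 and -0.27) and H4c12 (-0.32, -0.35 and -0.29) were lost without Gel replicate 1, Gel replicate 2 or CuNZ@Gel replicate 2, and H3c2 was gained without CuNZ@Gel replicate 1. With the replicate number as a term (replicate block), 6 regions were higher and 31 lower, and 2 genes higher and 27 lower, as without it. The labels do not say whether same-numbered libraries were prepared together. The correlation of their deviations was 0.0163, which cannot exclude a shared batch.

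The log2 change of the chromosome 13 sum (-0.59) was -0.0945 with the trend removed, -0.303 by totals of reads in regions and -1.65 relative to the background pileup, and ran from -0.617 to -0.560 without single libraries. The chromosome 11 sum (-0.91) was -0.424, -0.624 and -1.97 under the same scalings, -1.02 for the H2ac25 block alone and 0.297 without H2ac25, and ran from -0.940 to -0.877 without single libraries. Removing the trend turned the sign for 3 of 35 genes, H1f3 (0.0026), H3c8 (0.0061) and H2bc6 (0.134, not called in either), and for 13 of 50 regions. Of these regions 6 had been called lower: H2ac13 (0.057), H4c16 (0.11), H1f3 (0.24), H3c8 region 1 (0.11), H2ac12 (0.05) and H4c11 (0.04). Relative to the background pileup it turned for the genes H1f8 (-0.73), H1f9 (-0.63) and H4c6 (-0.95) and the third region of H1f8 (-0.097). By totals it turned for the uncalled genes H2ac10 (0.063), H2bc11 (0.211), H2bc6 (0.126) and H3c2 (0.046), and without Gel replicate 1 for the uncalled H1f9 and H2bc11, which over single left-out libraries ran from -0.031 to 0.522 and from -0.127 to 0.018. The cause was not tested. Over 35 genes and 15 named regions, 602 of 647 values kept their direction and side of the threshold, 15 turned sign, 23 lost the call and 7 gained it. Peak counts stayed within 1.5 times under a −log10 q of at least 5, a minimum overlap and equal list lengths. Depth limits the weak regions, such as those of H1f10.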
